A study of Mus musculus with 4 samples.

Results

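The genes described here encode extracellular and membrane-anchored proteases and their direct regulators in cultured mouse oesophageal cells. They were chosen by name, not by their values, as all rows of the deposited table whose symbol begins with Mmp, Adam, Adamts or Timp followed by a digit, plus Plau, Plaur and Plat. The rule found 82 genes of the 24444 in the table, which were 33 Adam, 19 Adamts, 23 Mmp and 4 Timp genes beside Plau, Plaur and Plat. Poly(A) RNA was sequenced in 2 HET libraries and 2 WT libraries. HET cells are heterozygous for E79Q, a substitution in NRF2 known from tumours, and their labels name Cas9 microinjection with an Nfe2l2-E79Q cassette. WT cells carry neither. All 4 libraries come from the strain C57BL/6J, and all 4 column names carry the word SV40, which the labels do not explain. The sources used here do not give the age of the mice, the number of animals behind a culture or the way in which the conditional allele of the series title was activated. The series' design text speaks of a human breast cancer line and conflicts with the title and every sample label, which were followed.

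Matrix metalloproteinases (MMPs) are zinc enzymes that cut collagens, fibronectin, laminins and other matrix proteins. ADAMs are membrane-anchored relatives that mostly cut other surface proteins, among them the precursors of EGFR ligands, while ADAMTS enzymes are secreted and act on proteoglycans and procollagens. TIMPs are secreted inhibitors of MMPs and of some ADAM and ADAMTS enzymes. In a parallel system, urokinase (Plau), held at the cell surface by its receptor (Plaur), and tissue-type plasminogen activator (Plat) convert plasminogen into plasmin, which cuts fibrin and activates several MMP precursors. Such enzymes let epithelial cells detach from the basement membrane and migrate during wound closure.

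Most of the tested proteases and all 3 tested TIMP genes were lower in HET cells, while the urokinase receptor gene Plaur, Mmp28 and Adam9 were higher. Values are the authors' variance-stabilised values, a log2-like scale on which 6.98 is the floor, the value of a gene with no reads. A difference is HET minus WT on that scale ± the moderated SE of the limma fit to 2 replicate pairs. This SE draws mostly on the spread of other genes and is not the spread between the 2 pairs of a gene. Of the 82 genes, 24 lay at the floor in all 4 libraries and 34 lay above it in at least 1 library but under the filter for testing, a value of 7.90 or more in at least 2 libraries. The other 24 were tested. By limma with Benjamini-Hochberg adjustment over all 10857 tested genes at 0.05, 16 of the 24 fell in HET cells, 3 rose and 5 were not called. Over all tested genes, 18.9% were called lower, 21.5% higher and 40.4% in either direction. The median difference was -0.28 over the 24 genes and 0.01 over all tested genes. HET and WT values did not overlap in 23 of the 24 genes, against 79.2% of all tested genes. Of the 24, 5 passed the filter through their WT libraries alone (Adam23, Mmp2, Adamts2, Adamts4 and Adamts10), so these could only be lower in HET cells. With the filter set on the mean over the 4 libraries, 21 genes were tested, 13 of them called lower and 3 higher. With 2 pairs an exact two-sided test cannot go below p = 0.5, so all calls rest on a spread pooled over genes. Nothing in the labels says that the libraries came from separate animals or cultures, so the p-values measure only the spread between these libraries.

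**Figure D1:**
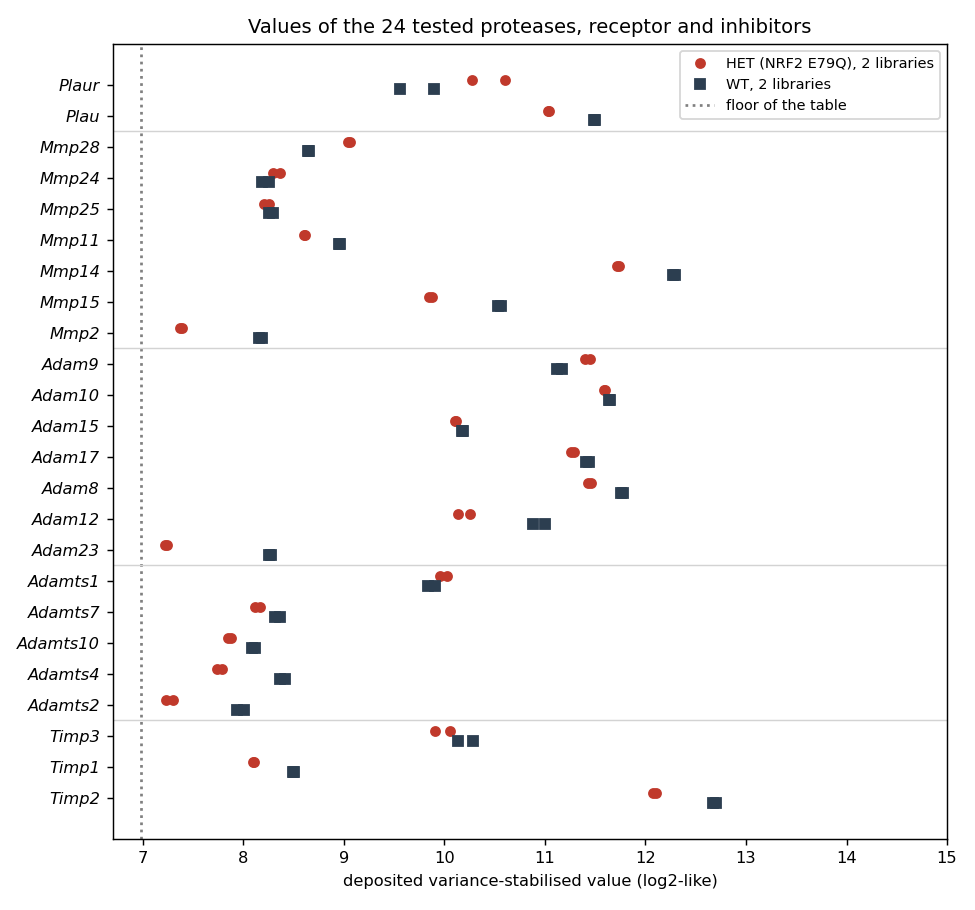
Deposited variance-stabilised value (horizontal axis, log2-like) of each of the 24 tested genes, grouped by family, with a red circle for each HET library and a dark square for each WT library; the dotted line is the floor of 6.98. For Plaur, Mmp28 and Adam9 both HET circles lie right of both WT squares, and for the 3 Timp genes both lie left.

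The cells carried the markers of a stratified epithelium. All 12 epithelial markers were tested, of which 4 rose and 4 fell in HET cells. Krt6a and Krt13 rose by 0.67 and 0.49, and Krt15 and Sox2 fell by 0.58 and 0.45. Krt5, a keratin of basal cells, lay at 15.79 and 15.84 in HET and at 15.85 and 15.80 in WT libraries. Of 9 fibroblast markers 2 were tested, with Lum at the floor in all 4 libraries. Their summed estimated normalised counts were 223 and 239 in HET libraries, against 559 and 557 in WT libraries. Most of that gap was Col1a1, with 44.9 and 36.7 in HET and 305 and 333 in WT libraries. Col1a1 passed the filter through its WT libraries alone, so it could only be lower. Twist1, the other tested marker, had 103 and 109 in HET and 142 and 135 in WT libraries and was not called. Col1a2 and Col3a1, under the filter, were also lower in both HET libraries. Dcn went the other way, at 10.8 and 10.7 in HET and 0 in both WT libraries, as did Thy1, while Pdgfra and Pdgfrb overlapped. The 5 muscle markers, of which Myl1 was at the floor, summed to 302 and 288 in HET and to 969 and 1002 in WT libraries. Most of it was Acta2, the gene of an actin of contractile cells. Its counts were 259 and 250 in HET and 859 and 880 in WT libraries. Acta2 fell by 1.23 ± 0.06 (limma adjusted p = 3.35e-10). Tagln, the other tested muscle marker, also fell, by 0.61 ± 0.07 (limma adjusted p = 1.07e-05). Tagln passed the filter through its WT libraries alone, so it could only be lower. The muscle genes Des and Myh11 stayed under 6 counts in every library and were higher in HET libraries. The part of Col1a1-expressing or Acta2-expressing cells in the protease results was not tested. Of 6 immune markers in the table, Ptprc, Adgre1 and Cd3e were at the floor and only Cd68 was tested. The immune sums were 377 and 414 in HET and 190 and 168 in WT libraries. Nearly all of this was Cd68, with 370 and 405 in HET and 184 and 164 in WT libraries. Cd68 rose by 0.67 ± 0.07 (limma adjusted p = 1.34e-06). The 4 endothelial markers summed to at most 13 in HET and at most 23 in WT libraries, with none tested. In bulk RNA, fewer cells of a type and less RNA per cell cannot be told apart. Xist, the RNA of the inactive X chromosome, lay at 7.30 and 7.12 in HET libraries but at 11.99 and 12.17 in WT libraries, while Y-linked genes were present in all 4. Of these, Eif2s3y (0.06 ± 0.06) and Kdm5d (0.13 ± 0.06) were not called, and Ddx3y rose by 0.54 ± 0.07 (limma adjusted p = 1.14e-05) and Uty by 0.31 ± 0.07 (0.00158). The WT libraries thus held both Xist and Y-linked RNA, and whether a WT culture mixed cells of both sexes was not tested. Genotype and this difference between the groups in sex-linked RNA cannot be told apart, which holds for all 82 genes. Of these, Timp1 is the 1 gene on the X chromosome.

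The urokinase receptor gene rose in HET cells and the urokinase gene fell. Plaur lay at 10.27 and 10.60 in HET and at 9.89 and 9.56 in WT libraries. Both HET values lay above both WT values, and Plaur rose by 0.71 ± 0.10 (limma adjusted p = 4.19e-05), a 1.87-fold higher normalised count. The size of the rise differed between the pairs, at 0.38 in replicate 1 and 1.04 in replicate 2, a gap that ranked 6 among the 10857 tested genes. With robust empirical Bayes Plaur was no longer called (limma adjusted p = 0.155). Plau, the gene of the enzyme that Plaur binds, lay at 11.03 and 11.04 in HET and at 11.50 and 11.49 in WT libraries. It fell by 0.46 ± 0.05 (limma adjusted p = 1.96e-06), a 1.42-fold lower normalised count, and nearly equally in both pairs. Plat lay under the filter, at 7.59 and 7.61 in HET and 7.83 and 7.81 in WT libraries. Its estimated normalised counts were 22.8 and 24.5 in HET and 45.0 and 42.6 in WT libraries, so the groups did not overlap.

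The window around the annotated start of Plaur is shown because it was the only one of those found for tested genes that holds an AP-1 motif. RefSeq promoter windows (build GRCm38.p6, 250 bases before to 50 after each start) were matched by symbol for 17 of the 24 tested genes. They were searched on both strands for the AP-1 motif TGANTCA, which reads the same motif on either strand, and for the core of the antioxidant response element, TGACNNNGC, the motif class to which NRF2 binds. Of all 32851 windows 7.81% held the first motif and 12.4% the second. Of the 17, 1 and 4 did. Plau, Mmp2, Adam9, Adam12, Adamts4, Adamts7 and Adamts10 had no matched window and were not searched. The Plaur window (chr7:24462233-24462532, plus strand) holds its match, in capitals, at positions -69 to -63 relative to the start. The windows of Mmp15 (chr8:95352046-95352345, plus strand) and Timp2 (chr11:118355362-118355661, minus strand), both of which fell in HET cells, hold the response element core on the reverse strand, also in capitals, at -156 to -148 in Mmp15 and -152 to -144 in Timp2. Adamts2 and Mmp24 hold it too. A match of letters is a description and not a site of binding.
Plaur: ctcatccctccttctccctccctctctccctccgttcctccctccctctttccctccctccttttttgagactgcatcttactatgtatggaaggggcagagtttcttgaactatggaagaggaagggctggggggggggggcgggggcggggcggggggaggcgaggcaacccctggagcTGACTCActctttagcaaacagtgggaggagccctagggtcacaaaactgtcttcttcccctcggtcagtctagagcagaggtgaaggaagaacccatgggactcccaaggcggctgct
Mmp15: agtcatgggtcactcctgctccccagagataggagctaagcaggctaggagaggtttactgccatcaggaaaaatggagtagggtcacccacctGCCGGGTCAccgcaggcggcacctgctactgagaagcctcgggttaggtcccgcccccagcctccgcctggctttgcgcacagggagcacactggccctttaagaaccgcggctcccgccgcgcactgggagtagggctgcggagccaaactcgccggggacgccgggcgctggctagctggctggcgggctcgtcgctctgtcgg
Timp2: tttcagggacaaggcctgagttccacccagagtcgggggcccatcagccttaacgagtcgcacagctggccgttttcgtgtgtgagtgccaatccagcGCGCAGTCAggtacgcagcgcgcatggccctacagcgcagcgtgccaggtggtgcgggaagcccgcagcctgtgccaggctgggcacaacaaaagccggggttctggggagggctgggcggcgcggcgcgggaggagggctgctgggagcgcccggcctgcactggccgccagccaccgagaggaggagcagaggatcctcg

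Of 7 tested MMP genes 4 fell, 1 rose and 2 were not called, with the falls including 2 membrane-type enzymes. Mmp14 encodes MT1-MMP, the collagenase at the cell surface that also activates the MMP2 precursor. Its values were 11.74 and 11.72 in HET and 12.27 and 12.29 in WT libraries. The groups stood well apart, and Mmp14 fell by 0.55 ± 0.05 (limma adjusted p = 1.36e-07), a 1.50-fold lower normalised count. Mmp15, the gene of the related MT2-MMP, lay at 9.87 and 9.85 in HET and at 10.53 and 10.56 in WT libraries. It fell by 0.69 ± 0.05 (limma adjusted p = 8.44e-08), or 1.81-fold in normalised counts. Mmp2, gelatinase A, which cuts denatured collagen and type IV collagen, was near the floor in HET libraries, at 7.39 and 7.36, against 8.16 and 8.18 in WT libraries. Its fall of 0.79 ± 0.08 (limma adjusted p = 6.76e-07) corresponded to estimated normalised counts of 10.5 and 9.11 in HET and 89.0 and 93.4 in WT libraries. Mmp11, stromelysin-3, an MMP whose precursor is cut by furin inside the cell, fell by 0.35 ± 0.07 (limma adjusted p = 0.000602). The scale compresses changes near the floor, so that counts and differences order these genes differently.

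Mmp28 was the 1 tested MMP that rose. It encodes epilysin, an MMP made by keratinocytes, and lay at 9.04 and 9.06 in HET and at 8.65 and 8.64 in WT libraries. The libraries of each group lay close together, and the rise was 0.40 ± 0.07 (limma adjusted p = 0.000156), a 1.64-fold higher normalised count. Mmp24 and Mmp25, both membrane-anchored, were not called, with differences of 0.11 ± 0.07 and -0.04 ± 0.07. Mmp25 was the only tested gene of the 24 whose groups overlapped. The collagenase gene Mmp13 lay over 7.90 in a single library and so under the filter. Its values were 7.77 and 8.13 in HET and 7.40 and 7.04 in WT libraries. Both HET values were the higher ones, at 39.3 and 85.0 estimated normalised counts, against 10.8 and 0.24 in WT libraries. Without a filter Mmp13 was called higher, by 0.73 ± 0.14 (limma adjusted p = 0.00564). Mmp9, gelatinase B, stayed at or under 12.5 estimated normalised counts in each library, and its groups overlapped.

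**Figure D2:**
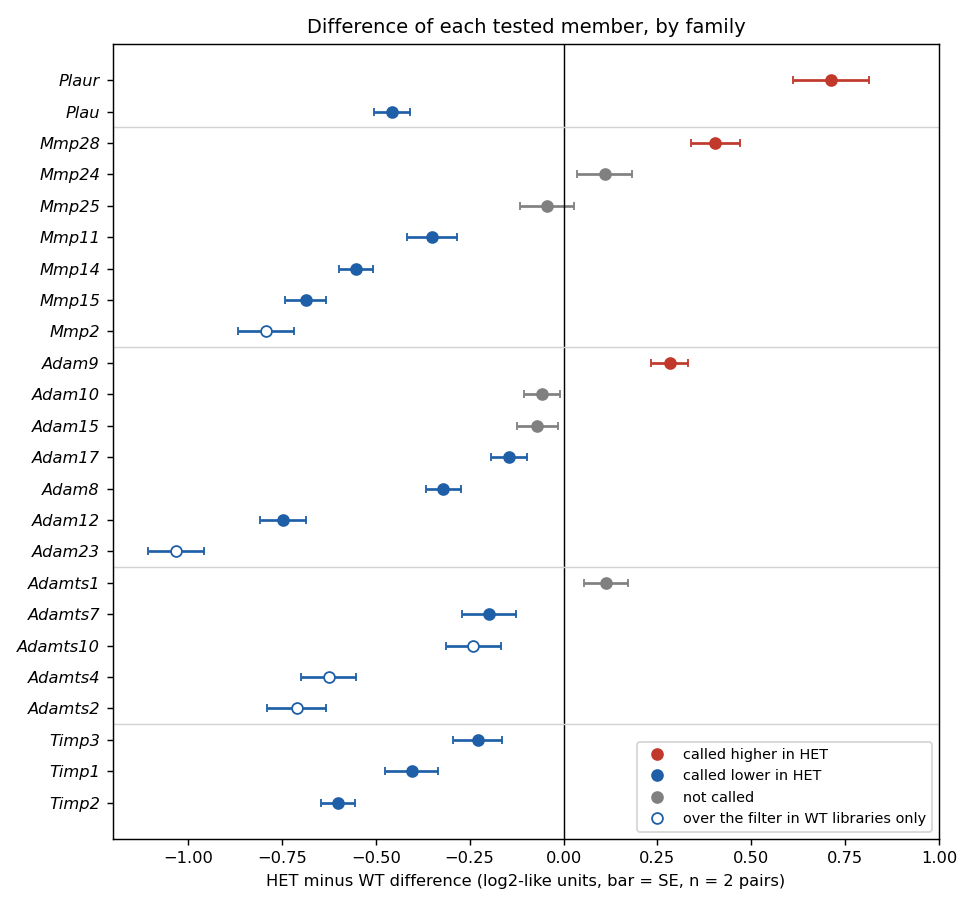
HET minus WT difference (horizontal axis, log2-like units) with its moderated limma SE for the 24 tested genes. Genes are grouped by family from the plasminogen system at the top to the TIMPs at the bottom. The 3 called rises are red, the 16 called falls blue and the 5 genes not called grey; open circles mark the 5 genes that passed the filter through WT libraries only.

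All 3 tested TIMP genes fell. Timp2, the inhibitor that also takes part with MT1-MMP in activating the MMP2 precursor, lay at 12.08 and 12.10 in HET and at 12.70 and 12.68 in WT libraries. It fell by 0.60 ± 0.04 (limma adjusted p = 4.47e-08), a 1.55-fold lower normalised count, with 0.63 in replicate 1 and 0.57 in replicate 2. The other 2 genes of that activation step are described above, and Mmp2 among them passed the filter through WT libraries alone. Timp1, the broadly acting secreted inhibitor, lay at 8.09 and 8.10 in HET and at 8.51 and 8.50 in WT libraries. It fell by 0.40 ± 0.07 (limma adjusted p = 0.000296), a 1.93-fold lower normalised count. Timp3, which stays bound to the matrix and inhibits ADAM17 and the aggrecanases, lay at 9.90 and 10.05 in HET and at 10.28 and 10.13 in WT libraries. The groups lay close to each other, and the fall of 0.23 ± 0.07 (limma adjusted p = 0.0122) came to 0.38 in replicate 1 and 0.08 in replicate 2. It was not called without the replicate block (limma adjusted p = 0.0957). Timp4 was at the floor in all 4 libraries.

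Of 7 tested ADAM genes 4 fell, 1 rose and 2 were not called. Adam12, a sheddase of HB-EGF, lay at 10.25 and 10.13 in HET and at 10.88 and 11.00 in WT libraries. It fell by 0.75 ± 0.06 (limma adjusted p = 1.05e-07), a 1.85-fold lower normalised count, and by more in replicate 2 (0.87) than in replicate 1 (0.62). Adam23, which has no protease activity and acts in cell adhesion, was nearly absent from HET libraries, at 7.22 and 7.24, against 8.27 and 8.25 in WT libraries. These values correspond to 3.62 and 4.22 estimated normalised counts in HET and to 109 and 105 in WT libraries, and the difference was -1.03 ± 0.08 (limma adjusted p = 3.49e-08). Adam8, a sheddase best known from leukocytes, fell by 0.32 ± 0.05.

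The broad sheddases differed little. Adam17, the main sheddase of TNF and of several EGFR ligands, fell by 0.15 ± 0.05 (limma adjusted p = 0.0245), with the same sign in each pair. It was not called without a filter (limma adjusted p = 0.0512) or without a mean-variance trend (0.0635). Adam10, which cuts Notch receptors and cadherins, differed by -0.06 ± 0.05 and Adam15, an ADAM that binds integrins, by -0.07 ± 0.05. Neither was called. Both were called lower without the replicate block (limma adjusted p = 0.0248 for Adam10 and 0.0210 for Adam15), a fit that ignores the centring by pair. Adam9, a widely expressed sheddase, was the 1 tested ADAM that rose, by 0.28 ± 0.05 (limma adjusted p = 0.000303), and was higher in both pairs.

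Of 5 tested ADAMTS genes 4 fell and Adamts1 was not called, but Adamts2, Adamts4 and Adamts10 passed the filter through WT libraries alone and could only be lower. Of the 2 that passed in both groups, Adamts7 fell. Adamts2, which removes the N-terminal propeptide of fibrillar procollagens, lay at 7.23 and 7.30 in HET and at 8.01 and 7.94 in WT libraries, a fall of 0.71 ± 0.08 (limma adjusted p = 3.45e-06). The estimated normalised counts were 3.71 and 6.30 in HET and 67.3 and 57.6 in WT libraries. Adamts4, an aggrecanase, lay at 7.74 and 7.78 in HET and at 8.41 and 8.36 in WT libraries. It fell by 0.62 ± 0.07 (limma adjusted p = 6.49e-06), a 3.42-fold lower normalised count. Adamts10, a partner of the fibrillin microfibrils, fell by 0.24 ± 0.07 and Adamts7, which cuts cartilage oligomeric matrix protein, by 0.20 ± 0.07. Adamts7 was not called without a filter (limma adjusted p = 0.0684) or after quantile normalization (0.0690). Adamts1, which cuts versican and aggrecan, differed by 0.11 ± 0.06. Without HET replicate 1 or WT replicate 1 its difference was 0.15, in fits with 1 library left in a group.

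Further ADAMTS genes lay under the filter. Adamts5, the other main aggrecanase, had 5.56 and 5.20 estimated normalised counts in HET libraries, against 52.8 and 54.0 in WT libraries. Adamts15 had 9.62 and 6.62 in HET and 50.8 and 59.0 in WT libraries, and Adamts9, which cuts versican, had 4.78 and 2.26 in HET and 26.2 and 33.9 in WT libraries. In each of these 3 the groups stood clearly apart, with lower counts in HET cells. Without a filter Adamts5 (-0.63 ± 0.07), Adamts15 (-0.57 ± 0.08), Adamts9 (-0.46 ± 0.08), Adamts16 (-0.30 ± 0.08) and Adam19 (-0.27 ± 0.08) were called lower by limma over 16324 genes, and of the 34 genes only Mmp13 was called higher. Of the 34, the highest library held under 10 estimated counts in 21 genes. Groups did not overlap in 17 genes that were lower in HET cells and in 4 that were higher, and they overlapped in 13. Over all 5467 genes of the table under the filter but not at the floor throughout, groups did not overlap in 46.3%, lower in HET cells in 28% and higher in 18.3%. Beside those named above and the Mmp cluster described next, the genes under the filter were Adam11, Adam1a, Adam1b, Adam21, Adam22, Adam28, Adam32, Adam33, Adam4, Adamts12, Adamts13, Adamts14, Adamts17, Adamts18, Adamts20, Adamts3, Adamts6, Adamts8, Mmp16, Mmp17, Mmp19 and Mmp23.

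**Figure D3:**
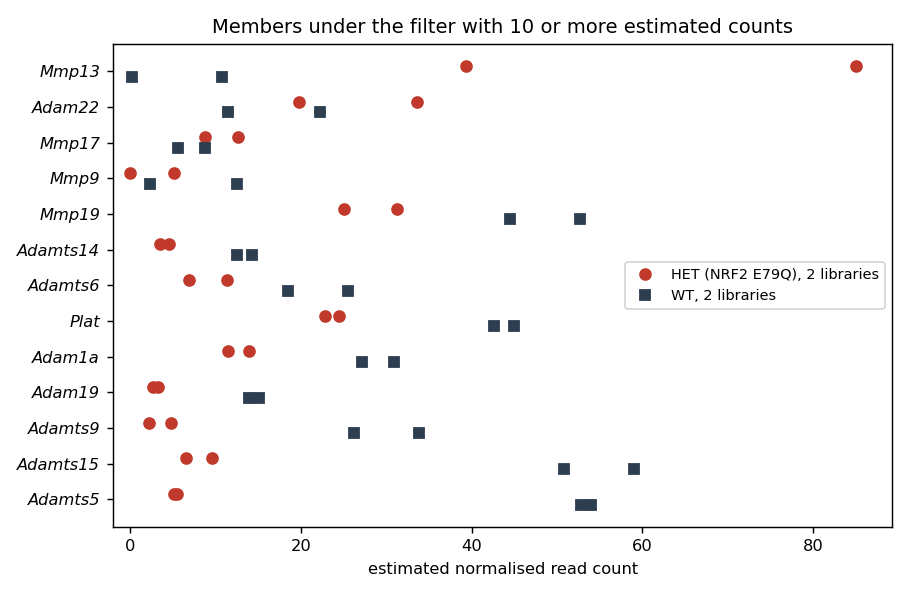
Estimated normalised read count (horizontal axis) of the 13 genes under the filter that reached 10 or more counts in a library, with a red circle for each HET library and a dark square for each WT library. Mmp13 lies highest in the HET libraries, and Adamts5, Adamts15 and Adamts9 lie in the HET libraries at under 10 counts.

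Many of the genes at the floor are neighbours of each other. By the RefSeq gene order, 10 Mmp genes (Mmp13, Mmp12, Mmp1b, Mmp3, Mmp1a, Mmp10, Mmp8, Mmp27, Mmp20 and Mmp7) lie in a cluster on chromosome 9, with each start less than 200 kb from the next. Of these, 5 were at the floor and 5 under the filter, with none tested. The cluster includes collagenases, stromelysins and matrilysin. On chromosome 8, 3 groups of 12 Adam genes in all include 10 at the floor, and of the 12 only Adam9 was tested. Most of these ADAMs are known from the testis. The genes at the floor outside the Mmp cluster were Timp4, Adam18, Adam2, Adam20, Adam24, Adam25, Adam26a, Adam26b, Adam29, Adam3, Adam30, Adam34, Adam39, Adam5, Adam6a, Adam6b, Adam7, Adamts19 and Mmp21. Reads of near-identical copies among them, such as Adam6a and Adam6b or Adam26a and Adam26b, could be split by counting.

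In values centred by pair, groups that do not overlap and pair differences of the same sign are the same thing, so the sign was the same in both pairs in all tested genes of the 24 except Mmp25. The second pair had the larger absolute difference in 12 of the 24 and in 59.1% of all tested genes. The median gap between the pairs was 0.06 for the 24 and 0.08 for all tested genes, and Plaur (0.66) stood far above it.

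**Figure D4:**
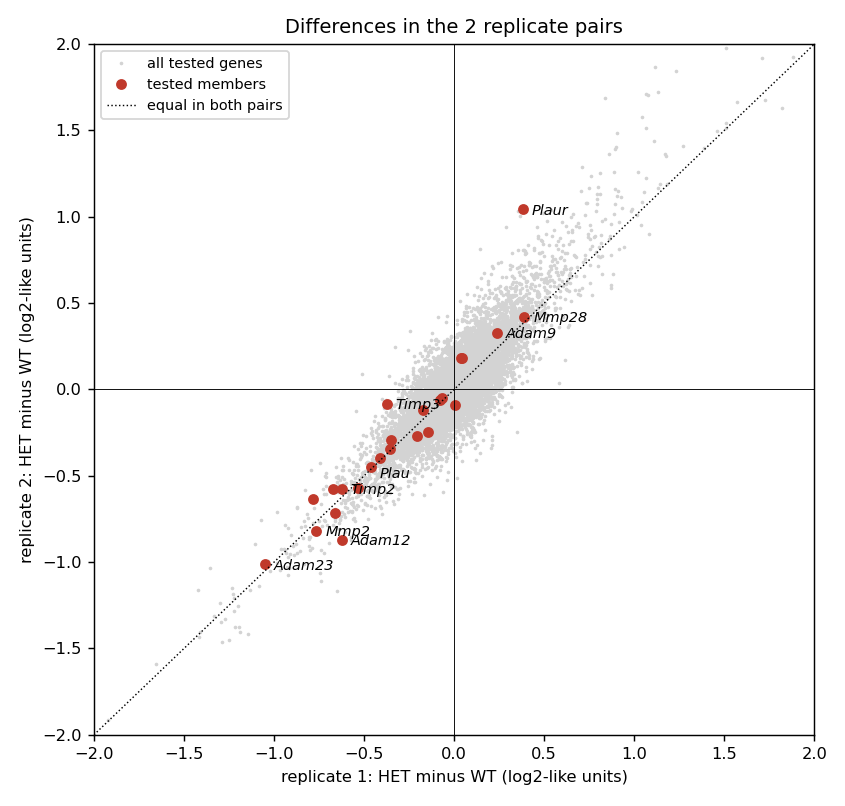
HET minus WT difference in replicate 1 (horizontal axis) against that in replicate 2 (vertical axis), in log2-like units, for all 10857 tested genes (grey; axes end at 2) and the 24 tested genes described here (red). Most red points follow the dotted line of equal differences, Plaur lies above it at 0.38 and 1.04, and Timp3 at -0.38 and -0.08.

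Related genes of the same pathways were read from 5 lists, of which 106 genes are not among the 82. Of these, 83 were tested, with 35 called higher and 24 lower in HET cells and a median of 0.04. Of the 83, 80 passed the filter in both groups. In the plasmin system 2 rose and 4 fell of 9 tested. Serpinb2, the urokinase inhibitor PAI-2, rose by 1.26 ± 0.12 and F3, tissue factor, by 0.76 ± 0.08, while Lrp1, the receptor that clears urokinase bound to its inhibitors, fell by 0.52 ± 0.05. Serpinb2 had the largest gap between pairs of all tested genes, at 0.84 in replicate 1 and 1.69 in replicate 2, in the same direction as Plaur. With robust empirical Bayes neither Serpinb2 (limma adjusted p = 0.195) nor F3 (0.0566) was called. Plg, the gene of plasminogen itself, was at the floor in all 4 libraries.

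Among the activators and regulators of metalloproteases 6 rose and 3 fell of 17. Of the 6, Papln passed the filter through its HET libraries alone and could only be higher. Adamtsl4, an ADAMTS-like protein without a protease domain, fell by 0.66 ± 0.06. Tspan15, a tetraspanin partner of ADAM10, rose by 0.46 ± 0.07 and Rhbdf2, which encodes iRhom2, a partner that ADAM17 needs to mature, rose by 0.43 ± 0.05. Other partners of these sheddases were not called, with Tspan5 at 0.11, Tspan14 at -0.03, Tspan17 at -0.20 and Tspan33 at 0.01 for ADAM10 and Rhbdf1 at 0.07 for ADAM17. Reck, a membrane inhibitor of MMPs, was under the filter.

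Of shed ligands and surface proteins 15 rose and 5 fell of 28. Epgn, Areg and Hbegf, EGFR ligands released by ADAM17 and other ADAMs, rose by 1.74 ± 0.09, 1.70 ± 0.11 and 1.54 ± 0.10, while Cdh2, N-cadherin, fell by 1.30 ± 0.06. Of the matrix substrates 4 rose and 9 fell of 16, with Fn1 (fibronectin) at -1.30 ± 0.05, Col1a1 (type I collagen) at -1.29 ± 0.07 and Sparc at -1.29 ± 0.07. Among the falls, Col1a1 and Nid1 passed the filter through their WT libraries alone, so both could only be lower. Of a list of AP-1 and ETS transcription factors, known regulators of MMP and urokinase genes, 8 rose and 3 fell of 13. The 13 include Runx1 (0.34 ± 0.05, called higher) and Runx2 (not called), which belong to neither family. Fosl1 (1.39 ± 0.11), Fos (1.15 ± 0.08) and Etv5 (0.91 ± 0.07) rose most. The second pair had the larger difference in 11 of these 13 factors, and Fosl1 (1.08 in replicate 1, 1.70 in replicate 2) and Areg (1.34 and 2.07) shared this with Plaur. AP-1 genes also respond to the handling of cells, whose part was not tested.

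**Figure D5:**
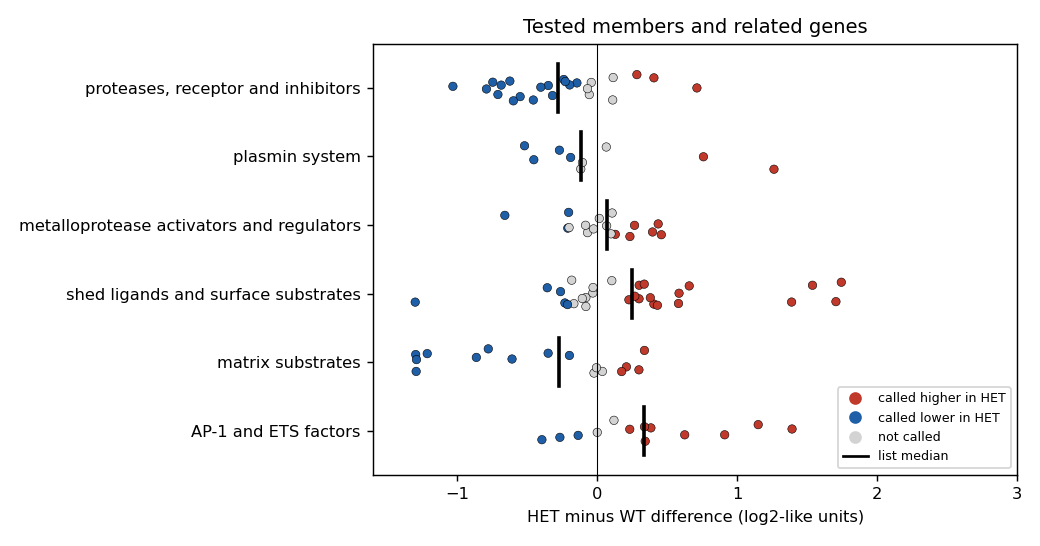
HET minus WT difference (horizontal axis, log2-like units) of the 24 tested proteases, receptor and inhibitors (top row) and of the tested genes of 5 related lists, 1 point per gene with a vertical line at each median. Red points were called higher, blue points lower and grey points not called. Medians are -0.28 in the top row, -0.28 for matrix substrates and 0.25 for shed ligands and surface substrates. The median is 0.34 for AP-1 and ETS factors, a row that also holds Runx1 and Runx2.

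In RefSeq 14 of the 24 tested genes overlap another annotated gene. Partners that were themselves tested include Iah1 for Adam17, BC029722 for Mmp24, Bicdl2 for Mmp25 and Syn3 for Timp3. The sources used here do not say whether counting used strand, so reads of such partners may not have been told apart. Nfe2l2 itself was not called (-0.10 ± 0.05, limma adjusted p = 0.154), although it was called lower after quantile normalization (limma adjusted p = 0.0496). Without replicate 2 of HET or of WT its difference was -0.15. A substitution leaves the level of its own transcript no check of the labels. Keap1, which encodes the protein that marks NRF2 for degradation, fell by 0.18 ± 0.05 (limma adjusted p = 0.0151).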

How the data were processed

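Poly(A) RNA of 4 libraries was measured, and the sample titles gave each library's group and replicate number. The deposited values are variance-stabilised, log2-like values per gene and library, per the file name. Per the submitters' processing notes, the build was mm9 and the tools were Salmon 0.11.3, STAR 2.5.2b, DESeq2 and DESeq 1.22.2, whose roles are not stated. In every gene HET plus WT of replicate 1 equals HET plus WT of replicate 2 to within 1.31e-13, so the authors' deposited values had been centred on the replicate number, and the numbers pair the libraries for this reason. Library depth is not given; the values, turned back into normalised counts by solving the variance-stabilising formula with the floor as its 0, sum to between 13.5 and 13.9 M per library, after the authors' scaling. Such counts are estimates, since the values were centred, and any value below the floor counts as 0.

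Genes that exceeded the table's minimum (6.90) by 1 or more in 2 or more libraries were fitted with limma 3.58.1 in R 4.3.3, as genotype plus replicate block, with eBayes and a mean-variance trend, two-sided. The fit leaves 1 residual degree of freedom per gene and borrows 14.6 from the other genes. Full values were given for genes called at a difference of at least 0.4, for Plau, Plaur, Plat and the tested Timp genes, and in each related list the 3 called genes with the largest difference are named, others being chosen after their values were seen. The members and lists were chosen with earlier results of these data known, and no list was tested. The fit was also run on simulated data in which every gene had the same spread. Such data cannot show how it handles genes whose pairs differ widely, such as Plaur, and no result here rests on them. A planned search for protein motifs was not run. Alternatives were no block, other filters and scalings, eBayes without trend or robust, and leaving out each library.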

Additional observations from a re-analysis of the deposited data

How the results depend on the processing

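The 16 genes called lower and 3 called higher in HET cells became 17 and 3 without the replicate block, of which 15 and 3 were shared with the paired fit. The fit without the block counts 2 residual degrees of freedom per gene where the centring by pair leaves 1, so calls gained in it carry less weight. The counts were 19 and 4 without a filter. They were 9 and 3 of 15 tested when the filter was raised to 2 above the lowest value, which leaves out the genes nearest the floor. Median centring gave 16 and 3, quantile normalization 15 and 3, eBayes without a trend 15 and 3, and robust eBayes 16 and 2. Leaving out each library in turn was fitted without the block and left 1 library in a group, so calls from these fits are not counted here. The median difference of the 24 genes was -0.28 without replicate 1 of either group and -0.32 without replicate 2. In values centred by pair, leaving out either library of a pair gives the same differences, so the fits with a library left out are 2 alternatives and not 4. Each takes a lone library to vary like the other group. The fits without the block, with other filters or none, without a trend and with robust eBayes leave each difference as it was. A sign could change only under median centring, quantile normalization or with a library left out, where no tested gene changed sign. Plaur, Timp3, Adam17 and Adamts7 lost their calls in some alternatives, and Adam10 and Adam15 gained one without the replicate block. Genes with few estimated counts, such as Adam23 and Adamts2 in HET libraries, are limited by depth.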
